A study of Homo sapiens with 3 samples.

Results

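Genes that the tumour suppressor p53 switches on were followed in the human kidney carcinoma line A498 after exposure to E. coli 83972 or to DRB. The 10 genes, MDM2, MDM4, CDKN1A, SESN1, SESN2, TP53INP1, CCNG1, PLK3, BTG2 and GADD45A, were taken by their symbols, and every probe set annotated to 1 gene of that symbol was used. Probe sets of 9 of them were named in the annotation. All 9 passed the filter on low signal and stood among 11653 genes that did so, of 18239 genes with a named probe set. BTG2, an anti-proliferative regulator, had no named probe set, so its level was not analysed here.

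There was 1 array for E. coli 83972, 1 for DRB (60 µM) and 1 for the control (0.08% DMSO), with RNA taken at 4 h from confluent cells in serum-free medium with gentamicin. E. coli 83972 is a strain known for carriage in the urinary tract without symptoms. The labels disagree on its concentration, so no dose is given, and they state DMSO for the control culture only. DRB is a nucleoside analogue that blocks elongation by RNA polymerase II through inhibition of CDK9. A498 is 1 cell line, which lacks functional VHL, and all groups share that background. Each group thus had a single array and no replicate, so no test was possible and a difference is one between 2 arrays, not between conditions.

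In unstressed cells p53 is kept low by MDM2, a ubiquitin ligase that marks it for degradation, and by the related protein MDM4. Damage or other stress frees p53, which then raises genes of growth arrest (CDKN1A, GADD45A, PLK3, BTG2), of metabolic protection (SESN1 and SESN2) and of death or autophagy (TP53INP1). MDM2 and CCNG1 are also raised and act back on p53 as a feedback loop. Several of these genes answer to other factors too. SESN2 and GADD45A, for example, are known targets of ATF4, the factor of the integrated stress response. Messenger RNAs of many such regulators are short-lived.

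Promoter windows from RefSeq (GRCh38.p14), each from 250 bases before to 50 bases after an annotated start, were on hand for 8 of the 10 genes, in 14 windows. No window was used for TP53INP1 or GADD45A. The MDM2 window at chr12:68808767-68809066 (plus strand), which belongs to the downstream start inside the gene, and the SESN1 window at chr6:109008939-109009238 (minus strand) are shown because they held letters close to the p53 full site, a pair of abutting half-sites. Capitals mark each stretch that differed from the full-site consensus at no more than 3 letters. The SESN2 window at chr1:28259268-28259567 (plus strand) and the PLK3 window at chr1:44800127-44800426 (plus strand) belong to members that were higher with E. coli 83972. Capitals there mark a match to the NF-kB consensus in SESN2 and to the CHOP-ATF4 element in PLK3.
MDM2: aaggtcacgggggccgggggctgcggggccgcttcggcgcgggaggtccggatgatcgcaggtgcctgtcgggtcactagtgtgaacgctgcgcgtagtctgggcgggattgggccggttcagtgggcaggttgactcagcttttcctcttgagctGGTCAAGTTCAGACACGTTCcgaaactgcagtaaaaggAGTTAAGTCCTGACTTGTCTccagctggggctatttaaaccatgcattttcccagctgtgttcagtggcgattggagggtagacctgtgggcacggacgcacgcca
SESN1: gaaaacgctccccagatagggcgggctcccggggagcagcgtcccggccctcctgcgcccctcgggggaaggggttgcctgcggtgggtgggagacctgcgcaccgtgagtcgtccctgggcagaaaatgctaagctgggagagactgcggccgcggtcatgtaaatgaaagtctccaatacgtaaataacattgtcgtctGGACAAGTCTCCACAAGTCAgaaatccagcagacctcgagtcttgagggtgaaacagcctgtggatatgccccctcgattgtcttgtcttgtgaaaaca
SESN2: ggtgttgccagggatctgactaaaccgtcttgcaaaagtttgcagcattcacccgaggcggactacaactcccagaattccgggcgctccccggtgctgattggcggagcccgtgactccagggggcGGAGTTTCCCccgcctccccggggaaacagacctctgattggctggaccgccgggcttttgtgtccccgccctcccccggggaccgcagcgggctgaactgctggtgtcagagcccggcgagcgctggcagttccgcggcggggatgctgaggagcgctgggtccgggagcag
PLK3: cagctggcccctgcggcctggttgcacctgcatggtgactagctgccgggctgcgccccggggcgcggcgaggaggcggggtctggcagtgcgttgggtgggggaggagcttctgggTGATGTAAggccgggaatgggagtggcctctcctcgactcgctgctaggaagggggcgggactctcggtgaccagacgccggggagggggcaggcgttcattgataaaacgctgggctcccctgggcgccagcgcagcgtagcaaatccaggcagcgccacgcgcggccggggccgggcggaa

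The MDM2 window held a first stretch, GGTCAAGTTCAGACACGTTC, at 94 to 75 bases before the start, with 2 mismatches, and a second, AGTTAAGTCCTGACTTGTCT, at 56 to 37 bases before it, with 3. The SESN1 stretch, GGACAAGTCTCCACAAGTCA, lay 49 to 30 bases before the start with 3 mismatches, and its first 10 letters, GGACAAGTCT, are an exact p53 half-site. Full sites with up to 3 mismatches were found in 5.20% of 35116 windows of the same length and in 3 of the 14 windows of these genes. With up to 2 mismatches they were found in 0.649% of all windows and in 2 of the 14, which are overlapping MDM2 windows. This mismatch rule was chosen after the sequences were seen.

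Exact matches on either strand were counted for the other motifs. The p53 half-site was in 6.63% of all windows and in the SESN1 window alone of the 14. The NF-kB consensus was in 5.91% of all windows and in SESN2, and the CHOP-ATF4 element, TGATGNAA, in 3.62% and in PLK3. The AP-1 site, TGANTCA, was in 7.71% of all windows and in the 2 overlapping MDM2 windows. None of the 14 held the CRE, TGACGTCA (1.85% of all windows), the serum response element (1.29%) or TATAAA (11.5%). A match is a run of letters and not a shown binding site.

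Array values are log2 probe-set levels, so a difference of 1 is 2-fold, and levels of different genes cannot be set against each other. Each gene is given by its brightest probe set, the one with the highest mean over the arrays. The filter level was the median of all values, 4.88. The plot of levels by array shows 3 orders. For MDM2, CDKN1A, SESN1 and CCNG1 the control array was highest and the DRB array lowest. For MDM4, SESN2, PLK3 and GADD45A the E. coli 83972 array was highest and the DRB array lowest. TP53INP1 alone was highest on the control array and lowest on the E. coli 83972 array. The DRB array was thus below control for all 9 genes, while E. coli 83972 was above control for 4 and below it for 5. Of all genes kept, 44.2% were below control with DRB and 54.7% with E. coli 83972.

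**Figure D1:**
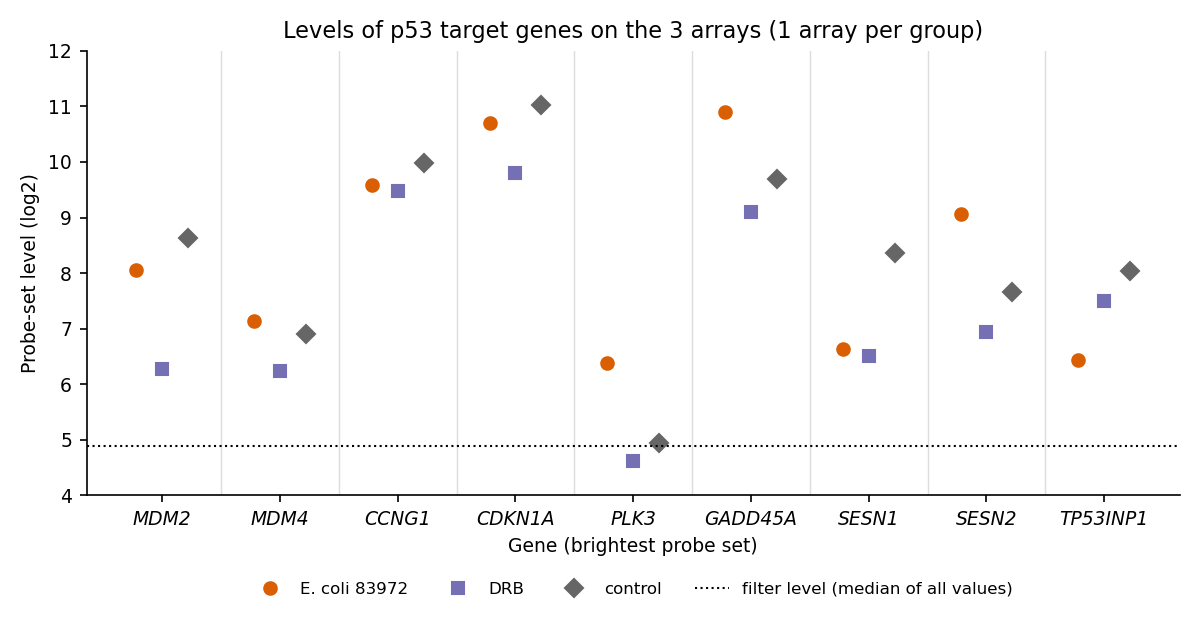
Log2 level of the brightest probe set of each gene on the E. coli 83972, DRB and control arrays (1 point per array), with the filter level of 4.88 as a dotted line. SESN1 lies low on both treated arrays, SESN2, PLK3 and GADD45A are highest with E. coli 83972, and MDM2 is lowest with DRB.

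With E. coli 83972, 3 of 9 members were at least 2-fold higher than control (PLK3, SESN2 and GADD45A) and 2 were at least 2-fold lower (SESN1 and TP53INP1). Of all genes kept, 1.91% passed the same threshold upward and 0.652% downward. The median difference of the members was −0.31, against −0.03 for all genes kept. With DRB, 3 of 9 were at least 2-fold lower (MDM2, SESN1 and CDKN1A) and 0 higher, where 10.2% of all genes kept were lower and 0.129% higher. The DRB median was −0.66 over the members and 0.05 over all genes kept. With arrays centred on poly-A spike-ins every DRB difference dropped by 0.84 on the log2 scale, and all 9 members were then at least 2-fold lower. The members were chosen with earlier results of these data known, so these counts describe them and are no independent evidence. Both differences use the same control array. A bulk extract cannot tell fewer responding cells from less RNA per cell.

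Of the inhibitors of p53, MDM2 stood apart with DRB. Its brightest probe set read 8.06 with E. coli 83972, 6.27 with DRB and 8.64 in control. The DRB array was the low one, 5.15-fold below control (log2 −2.36), and 146 of the 11653 genes kept had a lower difference. The E. coli 83972 array was 1.49-fold below control (−0.58).

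MDM2 had 11 probe sets, and their DRB differences were not alike. The 3 brightest gave DRB differences of −2.36, −2.22 and −3.36, and E. coli 83972 differences of −0.58, −0.60 and −0.49. The third of them read 6.75 with E. coli 83972, 3.88 with DRB and 7.24 in control, so its DRB value lay under the filter level. Another 3 reached the filter level, with control values of 4.94 to 5.85, and had DRB differences of −0.24 to −0.13 and E. coli 83972 differences of −0.02 to 0.15. The 5 others did not reach it on any array and had DRB differences of −0.55 to 0.18. Differences of dim probe sets are compressed, so the sizes from the dimmer MDM2 probe sets are uncertain. With the mean over all 11 probe sets the DRB difference was −0.84 ± 1.21 (SD over probe sets), under 2-fold. All 11 probe sets are of types that hit several transcripts of a gene or may also bind unrelated sequences, and which MDM2 transcripts each one reads was not tested.

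MDM4, the relative of MDM2 that blocks the activating part of p53 without being a strong ligase itself, read 7.14 with E. coli 83972, 6.24 with DRB and 6.90 in control. It was thus 1.18-fold above control with E. coli 83972 (0.24) and 1.58-fold below it with DRB (−0.66). All 6 of its probe sets were above control with E. coli 83972, by 0.10 to 0.24. With DRB they disagreed in sign, 4 below and 2 above control, and averaged −0.15 ± 0.30 (SD over 6 probe sets).

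CCNG1 encodes cyclin G1, which brings protein phosphatase 2A to MDM2. It read 9.59 with E. coli 83972, 9.47 with DRB and 9.98 in control. Both treated arrays were below control in all 5 probe sets, with means of −0.40 ± 0.05 for E. coli 83972 and −0.42 ± 0.08 for DRB (SD over 5 probe sets). These differences were under 2-fold and more even between probe sets than those of MDM2.

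Of the growth arrest genes, CDKN1A encodes p21, an inhibitor of cyclin-dependent kinases that also binds PCNA. Its level was 10.70 with E. coli 83972, 9.80 with DRB and 11.02 in control. It was 2.32-fold below control with DRB (−1.22) and 1.24-fold below it with E. coli 83972 (−0.31). Its other probe set read 7.92, 7.31 and 8.23 on the E. coli 83972, DRB and control arrays. It gave the same −0.31 for E. coli 83972 but −0.92 for DRB, just under 2-fold. CDKN1A and MDM2 were therefore below control on the DRB array, with MDM2 the further of the 2 from control in its brightest probe sets.

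PLK3, a polo-like kinase of stress and cell cycle checkpoints, went the other way with the bacterium. Its single probe set read 6.38 with E. coli 83972, 4.61 with DRB and 4.95 in control, which is 2.71-fold higher with E. coli 83972 (1.44). Of all genes kept, 0.918% had a higher difference. The control value was just above the filter level and the DRB value under it, where differences are compressed, so the DRB difference of −0.33 and the size of both folds are uncertain.

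GADD45A, which binds PCNA and p21 and activates stress kinases, read 10.90 with E. coli 83972, 9.11 with DRB and 9.70 in control in its single probe set. The E. coli 83972 array was the high one, 2.31-fold above control (1.21), and the DRB array was below it by less than 2-fold (−0.59). With centring on hybridization spike-ins the E. coli 83972 difference was 0.87, under 2-fold.

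The sestrins, which restrain mTORC1 and limit oxidative stress, parted on the E. coli 83972 array. SESN1 read 6.63 with E. coli 83972, 6.50 with DRB and 8.36 in control. Both treated arrays were low, 3.32-fold below control with E. coli 83972 (−1.73) and 3.63-fold below it with DRB (−1.86). The second SESN1 probe set, at 4.75, 4.83 and 6.50 on the same arrays, gave −1.75 and −1.67. Both of its treated values lay under the filter level, where differences are compressed, so these sizes are uncertain. Only 10 of the 11653 genes kept had a lower E. coli 83972 difference than SESN1, while 338 had a lower DRB difference.

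SESN2, a leucine-binding sestrin, read 9.06 with E. coli 83972, 6.94 with DRB and 7.66 in control. The E. coli 83972 array was 2.64-fold above control (1.40) and the DRB array 1.65-fold below it (−0.72). Its second probe set agreed in direction, with 1.09 and −0.44. On the E. coli 83972 array, both probe sets of SESN1 were thus at least 2-fold below control and both of SESN2 at least 2-fold above it. SESN3, the remaining sestrin gene, did not reach the filter level on any array, with 3.55 for E. coli 83972, 3.57 for DRB and 3.67 for control. It is named after its values were seen.

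TP53INP1, a stress protein of the nucleus and of autophagy, was the member whose lowest level was with E. coli 83972. The brighter probe set read 6.44 with E. coli 83972, 7.50 with DRB and 8.05 in control. It was 3.05-fold below control with E. coli 83972 (−1.61), with 12 of all genes kept lower, and 1.46-fold below it with DRB (−0.55). The other probe set read 5.65, 5.70 and 5.49, and differed from control by 0.16 and 0.21 in the opposite direction. The mean for E. coli 83972 was −0.73 ± 1.25 (SD over 2 probe sets), so the decrease rested on 1 probe set.

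**Figure D2:**
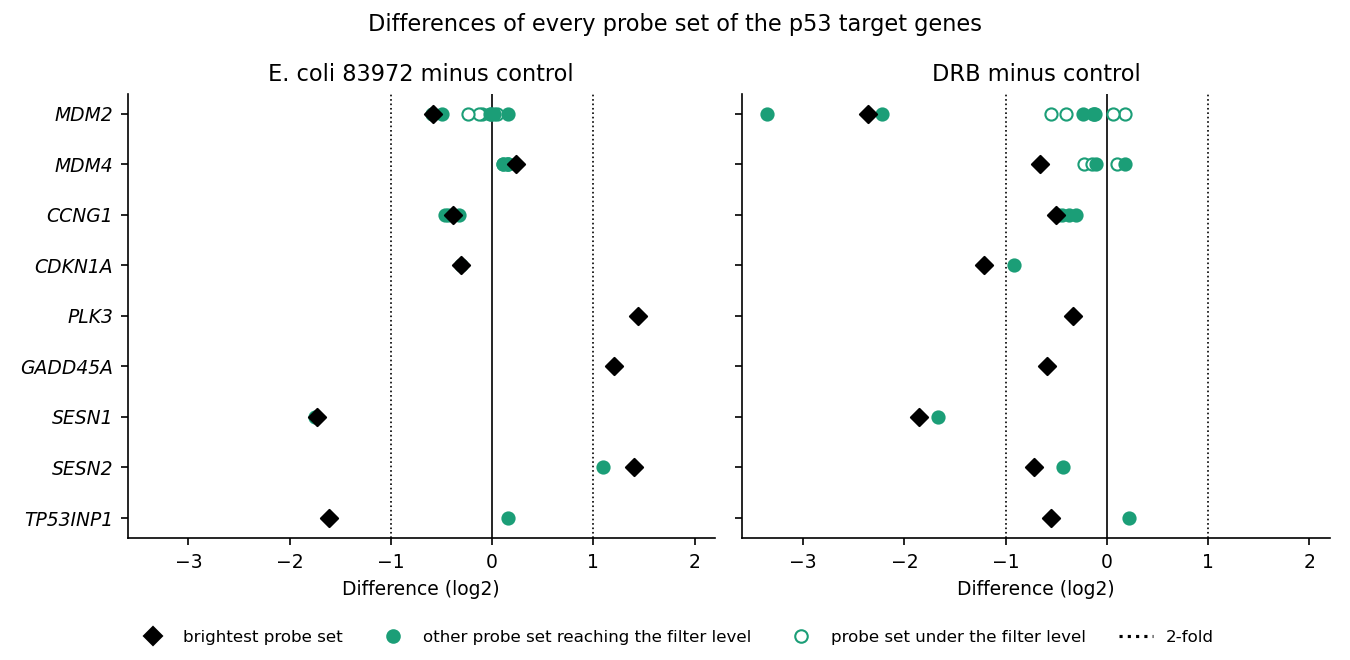
Log2 difference from control of every probe set of the 9 genes, for E. coli 83972 (left) and DRB (right), with the brightest probe set as a black diamond, other probe sets reaching the filter level as filled circles and those under it as open circles. The probe sets of SESN1, SESN2 and CCNG1 lie close together, while those of MDM2 with DRB spread from −3.36 to 0.18 and those of TP53INP1 fall on both sides of 0.

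Among the 32 probe sets of the 9 genes, 24 reached the filter level. Of these, 4 were above control by 2-fold or more with E. coli 83972 and 3 below it, and with DRB 6 were lower and 0 higher. The 6 were 3 of MDM2, 2 of SESN1 and 1 of CDKN1A, so they are not separate genes. The share over all probe sets was not counted. Of all genes kept, 1.91% were higher and 0.652% lower with E. coli 83972, and 10.2% were lower and 0.129% higher with DRB. A measure of technical error, the disagreement of the 2 brightest probe sets of a gene over 6317 genes, gave a standard deviation of a difference of 0.18 for E. coli 83972 and 0.32 for DRB. It holds no variation between cultures. The DRB difference of PLK3 (−0.33) and the E. coli 83972 difference of MDM4 (0.24) were near this spread. Those of CCNG1 (−0.51), TP53INP1 (−0.55) and GADD45A (−0.59) with DRB were not far above it in size. Over all probe sets, the DRB means of MDM4 (−0.15) and TP53INP1 (−0.17) were within it.

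Of the 12 paralogs of the members that were kept, 6 were at least 2-fold lower with DRB and 0 higher, with a median of −0.76, where 10.2% of all genes kept were lower. BTG1, an anti-proliferative relative of BTG2, read 10.23 with E. coli 83972, 7.02 with DRB and 9.75 in control, so that it was 6.62-fold below control with DRB (−2.73). CCNG2, the unconventional cyclin related to CCNG1, differed by −2.18 with DRB, TOB1, of the same protein family as BTG1, by −1.96, and GADD45B by −1.79. The probe sets of CCNG2 (mean −1.06 ± 1.23 over 3) and GADD45B (−0.63 ± 1.07 over 3, under 2-fold) disagreed in size. CCNG2 at 4.84 lay under the filter level on the DRB array, so its DRB fold is uncertain. With E. coli 83972, 1 of 12 was at least 2-fold higher, BTG3 (1.12), and 0 lower, and the median was 0.05, where 1.91% of all genes kept were higher. BTG3 read 5.95 with E. coli 83972, 4.67 with DRB and 4.83 in control, so it passed the filter through the E. coli 83972 array alone and its fold is uncertain. PLK2, a sister kinase of PLK3, differed by 0.89 in its brightest probe set, but by a mean of 1.25 ± 0.28 (SD) over its 4 probe sets reaching the filter level, which is over 2-fold. Its DRB difference was −1.03 in the brightest probe set, but a mean of −0.83 ± 0.28 (SD) over the 4, under 2-fold. With E. coli 83972, GADD45B differed by 0.69 and TOB1 by −0.66.

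Other known p53 target genes, 42 kept of 49 listed, had 2 genes higher by 2-fold and 0 lower with E. coli 83972, around a median of −0.16. Of all genes kept, 1.91% were higher and 0.652% lower. The 2 higher genes were PMAIP1, which encodes the BH3-only protein NOXA, at 2.04, and GDF15, a stress cytokine, at 1.67. PMAIP1 read 10.92 with E. coli 83972, 7.96 with DRB and 8.88 in control, and GDF15 read 12.02, 10.21 and 10.36. Both were highest with E. coli 83972, as were PLK3, SESN2 and GADD45A. With DRB 4 of the 42 were lower and 0 higher, near the share of all genes kept, with a median of −0.26. They were RAP2B, a small GTPase gene, at −2.13, SERTAD1 at −1.46, the death receptor gene FAS at −1.15 and ANKRA2 at −1.06.

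By role, apoptosis targets had medians of −0.02 with E. coli 83972 and −0.29 with DRB over 13 kept genes. The death receptor gene TNFRSF10B (0.75), BBC3, which encodes PUMA (0.73), and TP53I3 (−0.66) followed PMAIP1 with E. coli 83972. With DRB, PMAIP1 (−0.92), TNFRSF10B (−0.84) and PHLDA3 (−0.84) followed FAS. The DRB mean of TNFRSF10B over its 3 probe sets reaching the filter level was −0.24 ± 0.57 (SD). None of 8 DNA repair and nucleotide genes was 2-fold different in either comparison. Among all genes kept, 1.91% passed this threshold upward and 0.652% downward for E. coli 83972. For DRB the shares were 0.129% and 10.2%, so 0 of 8 is near them. The medians of the 8 genes were −0.16 and −0.27, and XPC, a sensor of DNA damage, differed by −0.52 and −0.50. Targets of growth arrest, metabolism and other roles had medians of −0.24 and −0.15 over 21 genes. PPM1D, the phosphatase that turns p53 off, was 1.92-fold below control with E. coli 83972 (−0.94), SERTAD1 differed by −0.87 there and TIGAR, which lowers glycolytic flux, by −0.69. EDA2R differed by −0.93 with DRB.

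**Figure D3:**
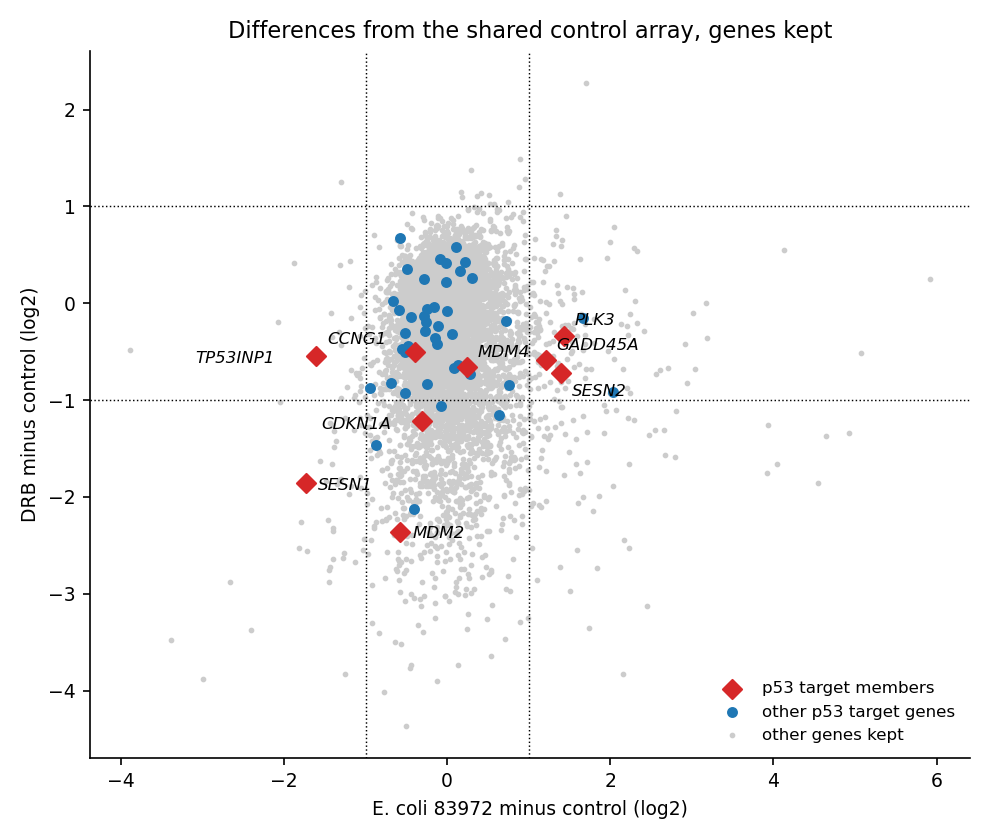
Log2 difference of E. coli 83972 minus control (horizontal) against DRB minus control (vertical) for all 11653 genes kept (grey), with the 9 members as red diamonds and the 42 other p53 target genes as blue circles; dotted lines mark 2-fold and both axes share the control array. All 9 members lie below 0 on the vertical axis and spread from −1.73 to 1.44 on the horizontal one.

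Regulators of p53 differed little. Of 24 genes kept, 0 were 2-fold different with E. coli 83972 and the median was 0.03. With DRB 1 was higher, the ubiquitin ligase gene HUWE1 (1.29), and 1 lower, TRIM24 (−1.23), which encodes another ligase of p53, with a median of 0.04. HUWE1 was also 1.94-fold above control with E. coli 83972 (0.95), TRIM24 was below it (−0.57), and the coactivator gene EP300 (0.56) and DAXX (0.56) were above it. RCHY1, a ligase of p53, differed by −0.98 and PRKDC, a DNA damage kinase, by 0.75 with DRB.

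Genes that act with the sestrins on mTORC1 had 0 of 16 at least 2-fold different with E. coli 83972. The shares of all genes kept were 1.91% higher and 0.652% lower. DDIT4, another stress inhibitor of mTORC1, had the largest difference there (0.69), followed by DEPDC5 (−0.46), SEH1L (−0.38) and RRAGC (0.36). With DRB 2 of 16 were lower, near the 10.2% of all genes kept. They were MIOS (−2.18), a subunit of the GATOR2 complex that SESN2 binds, and TSC1 (−1.24, with a mean of −0.51 ± 1.03 over 2 probe sets). DEPDC5 differed by −0.79 and RPTOR by −0.59 there. The mean of RPTOR over its 3 probe sets reaching the filter level was −0.04 ± 0.51 (SD). The medians of the list were −0.04 with E. coli 83972 and −0.12 with DRB.

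Partners of p21 had 3 of 13 at least 2-fold lower with DRB, where 10.2% of all genes kept were lower. They were the cyclin genes CCNE2 (−2.64), CCNE1 (−1.25) and CCNA2 (−1.13), followed by CCNB1 (−0.68), and the median was −0.30. The mean of CCNE1 over its 2 probe sets reaching the filter level was −0.91 ± 0.49 (SD), under 2-fold. With E. coli 83972 the kinase gene CDK6 was at least 2-fold higher (1.06) and 0 of 13 were lower, where 1.91% of all genes kept were higher. The mean of CDK6 over its 4 probe sets reaching the filter level was 0.92 ± 0.26 (SD), under 2-fold. CCNA2 (−0.58), CCNB1 (−0.52) and PCNA (−0.34) followed, and the median was 0.11.

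Pathways that share targets with p53 were set beside it. Of all genes kept, 1.91% were at least 2-fold higher with E. coli 83972 and 10.2% lower with DRB. Genes of the ATF4 response had 6 of 12 at least 2-fold higher with E. coli 83972, 0 lower and a median of 1.15, and with DRB 3 lower, 0 higher and a median of −0.33. ATF4 itself read 12.01 with E. coli 83972, 9.52 with DRB and 10.60 in control. ATF3 differed by 2.92, DDIT3 by 2.21 and STC2 by 1.97 with E. coli 83972. With DRB, CEBPB differed by −2.72, DDIT3 by −1.18, ATF4 by −1.08 and PPP1R15A by 0.69. NF-kB feedback genes and targets had 10 of 11 at least 2-fold higher and 0 lower with E. coli 83972, with a median of 1.80, led by TNFAIP3 (3.93), ICAM1 (3.18), TRAF1 (3.17) and NFKBIA (2.41). TRAF1 read 7.82 with E. coli 83972, and 4.65 with DRB and in control, under the filter level, so its fold and rank are uncertain. With DRB 3 of 11 were lower, REL (−1.60), TNFAIP3 (−1.26) and IER3 (−1.10), followed by BCL3 (−0.85), with a median of −0.28. The DRB mean of TNFAIP3 over its 2 probe sets reaching the filter level was −0.79 ± 0.67 (SD), under 2-fold. REL at 4.72 and DDIT3 at 4.62 lay under the filter level on the DRB array, so their DRB folds are uncertain. SESN2, GADD45A and PLK3 were thus highest on the array on which these lists were also high. The part of either pathway in their levels was not tested.

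**Figure D4:**
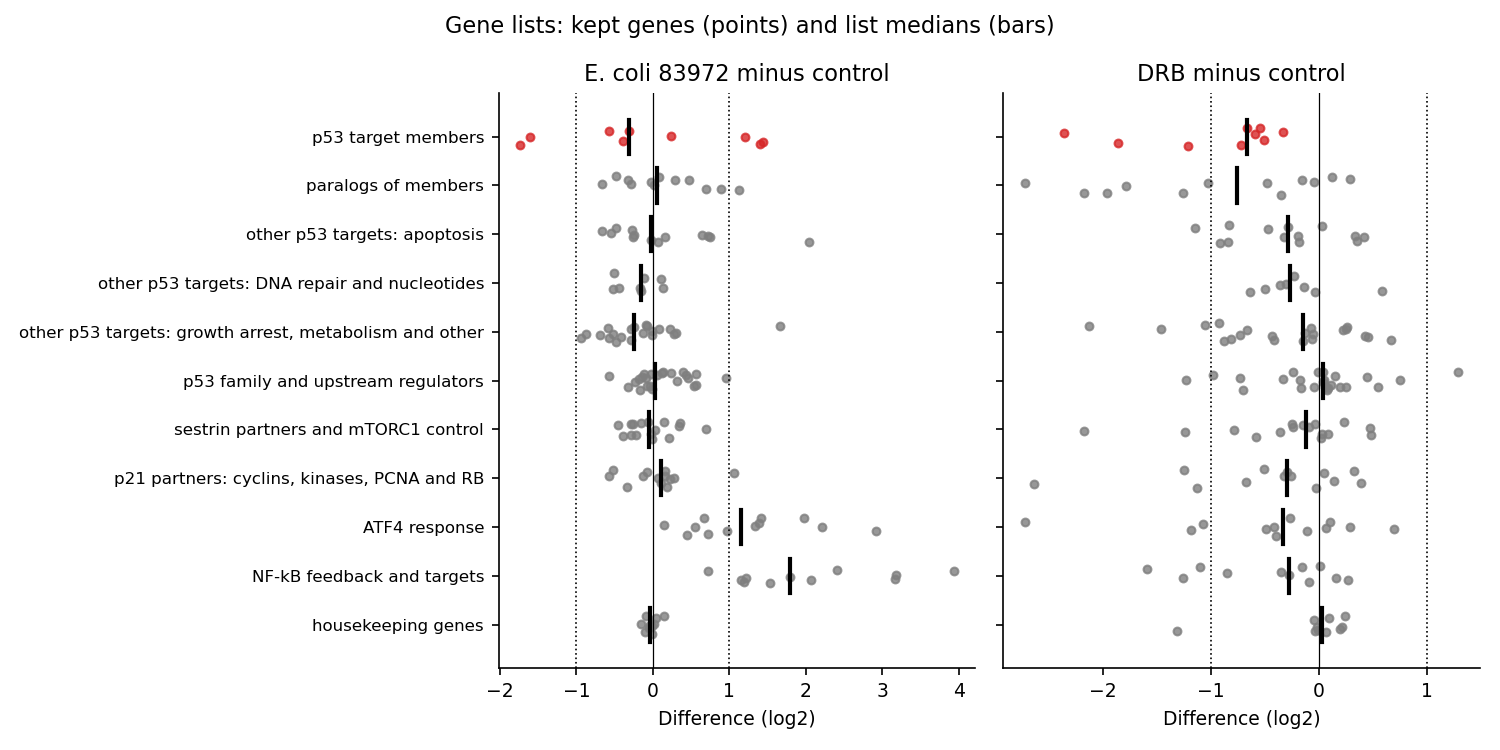
Log2 difference from control of each kept gene (points) and the median of each list (black bars), for E. coli 83972 (left) and DRB (right), with the p53 target members in red and dotted lines at 2-fold. The members spread to both sides of 0 with E. coli 83972 and lie below 0 with DRB, where the median of their paralogs is also low (−0.76).

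The genes whose pair of differences lay nearest to a member's were found among the 11652 other genes kept, by Euclidean distance over both differences from 3 arrays. For MDM2 they were LIN9 (distance 0.07), KTI12 (0.09) and CENPL (0.09), and for CDKN1A CHAC2, MTERF4 and ZNF586 (0.02 each). For SESN2 they were PROSER2 (0.02), BCL2L11 and MSC (0.09 each). SESN1 had no gene so near. PSRC1, at 0.25, was the nearest, with −1.48 for E. coli 83972 and −1.83 for DRB, followed by ZBTB18 at 0.29 and LHX1 at 0.38.

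Kidney epithelial and renal carcinoma markers were present, with KRT18 at 11.55 to 11.67 and VIM at 12.76 to 12.85 over the arrays. All 9 with a named probe set reached the filter level, as did 11653 of 18239 genes. LRP2, of the proximal tubule, barely did so (4.44 to 4.90). Of the 9, 0 were 2-fold different. Of all genes kept, 1.91% were higher and 0.652% lower with E. coli 83972, and 10.2% were lower with DRB, so 0 of 9 is near these shares. Of the markers of other cell types with a named probe set, 1 of 4 leukocyte, 2 of 5 endothelial and 1 of 5 fibroblast markers reached the filter level and none differed from control by more than 0.26 in size. PTPRC, the defining leukocyte gene, was at 3.41 to 3.52. Housekeeping genes had medians of −0.03 with E. coli 83972 and 0.03 with DRB over 10 genes. TBP (−1.32 with DRB) was the 1 of 10 that was 2-fold different, near the 10.2% lower among all genes kept. The array medians were 4.90 for E. coli 83972, 4.88 for DRB and 4.87 for control.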

How the data were processed

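The values were probe-set levels on a log2 scale that the authors deposited for 3 arrays. RMA and Partek are the tools named for them, per the submitters' processing notes, with versions and settings not given in the sources used here. Such normalization brings arrays to nearly one distribution, so a change shared by most transcripts is reduced, and dim probe sets show compressed differences. Of 49386 probe sets, 45259 had 1 gene symbol, 1327 had several and named none, and 2800 were not listed. Current symbols came from a RefSeq table matched on Entrez number (GRCh38.p14), which held the number for 45178 of them. Here the brightest probe set stood for each of 18239 genes, and 11653 were kept whose highest value reached 4.88, the median of all values. Differences were taken as deposited, and 2-fold was the threshold. With 1 array per group no test was run, p-values are absent and precision is limited by that number of arrays. The members, the 15 gene lists, the tests and the alternatives were chosen with earlier results of these data known. Named genes are the members, up to 4 genes of each list with the largest differences in each comparison, and the 3 nearest genes of MDM2, CDKN1A, SESN1 and SESN2; for markers and housekeeping genes only some are named, with KRT18, VIM and PTPRC as defining markers outside that rule. Calculations were tested on simulated data. Python 3.11.15, pandas 2.3.3 and statsmodels 0.14.6 were used. Alternatives were the mean over probe sets, no filter, plain-suffix probe sets, loess, 2 spike-in centrings and a 1.5-fold threshold.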

Additional observations from a re-analysis of the deposited data

How the results depend on the processing

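No paired analysis was possible because each group has 1 array and all share the same experiment number. For all members together, the alternatives that moved a count by over 1.5 times or a median by more than the technical spread were as follows. With the mean over all probe sets 1 member was lower with E. coli 83972, TP53INP1 no longer being 2-fold, and MDM2 was under 2-fold with DRB. With plain-suffix probe sets, which measure 4 members, 1 was higher and 1 lower with E. coli 83972 (median −0.078) and 0 were lower with DRB. Centring on poly-A spike-ins shifted all genes by −0.84 with DRB, so all 9 members were lower (median −1.501), as were 3806 genes, with 1 higher. Centring on hybridization spike-ins shifted all by −0.34 with E. coli 83972 (−0.23 with DRB) and gave an E. coli 83972 median of −0.65. At 1.5-fold 6 members were lower with DRB. No called member that an alternative measured changed sign there; plain-suffix probe sets measured 2 of the 5 members called with E. coli 83972 and 1 of the 3 called with DRB.

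Counts over all genes kept were 222 higher and 76 lower with E. coli 83972, and 15 higher and 1185 lower with DRB. With E. coli 83972 the mean over probe sets gave 43 lower, plain-suffix probe sets (3459 genes) 82 higher and 22 lower, hybridization spike-ins 129 higher and 247 lower, and 1.5-fold 605 and 357. With DRB they gave, for the mean over probe sets, 6 higher and 698 lower, for plain-suffix probe sets 7 and 401, for loess, with a shift of −0.13, 8 higher, for hybridization spike-ins 5 higher, and at 1.5-fold 237 and 2106. Fewer genes enter the plain-suffix setting and the mean over probe sets (9861 genes), and the centrings shift all genes alike. Of the hybridization probe sets most are for E. coli genes, and whether RNA of the bacterium added to them was not tested.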
